A study of Mus musculus with 12 samples.

Results

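The expression of 10 genes of neurons and neural precursors was followed in mouse embryonic stem cells (ESCs) and in embryoid bodies (EBs), the aggregates that ESCs form when they differentiate in suspension. The genes encode the neurofilament subunits Nefl and Nefm, the precursor filament protein nestin (Nes), the microtubule proteins Stmn2, Tubb3, Dcx and Map2, the RNA-binding proteins Elavl3 and Elavl4, and the secreted protein Reelin (Reln). They were chosen by name, each taken from the array feature with the highest mean among features annotated to that symbol alone, and they are 10 of the 19938 genes measured in this way. Of the 10, 7 were among the 10880 genes whose signal exceeded 45 (5.49 on the log2 scale) on at least 1 array, and only these were tested. The study's methods set the same level, but for the samples compared rather than for all arrays. Dcx, Map2 and Elavl4 passed this floor on no array. Nefm passed it only on HP1βKO ESC 1 and Elavl3 only on the library labelled HP1αKO ESC 2, so that each was tested through the group where it was high. Their differences are given as descriptions, and counts that hold them are no support for a direction. Reln passed the floor on 5 arrays, all of EBs, so that its rise from ESCs to EBs is likewise a description.

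The 12 arrays measured total RNA of 6 groups with 2 biological replicates each. ESCs were wild type (WT, line HM1 in the labels), lacked HP1α (HP1αKO, line R1) or lacked HP1β (HP1βKO, line R1), and EBs of the same genotypes were collected after 7 days of suspension culture in ESC medium without LIF. All ESCs had been grown on a gelatin coat with mitomycin-treated mouse embryonic fibroblasts and sorted for the surface antigen SSEA1 with magnetic beads, before harvest or before EB formation. Genotype and line cannot be told apart in a knockout against WT, although the study's methods describe HM1 as a littermate control. The sources used here do not say whether a knockout line was 1 clone or whether replicates came from separate cultures, so that p-values measure the spread between these samples, which may be technical. HP1α and HP1β, encoded by Cbx5 and Cbx1, are chromatin proteins that bind methylated histones.

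Neurofilaments are intermediate filaments that fill the axons of neurons, while nestin filaments are typical of dividing neural precursors and are also found in other immature cells. Young neurons build their processes with a neuronal β-tubulin (Tubb3), with doublecortin (Dcx) and Map2, which bind and stabilize microtubules, and with stathmin-2 (Stmn2), which regulates microtubule dynamics in growth cones. Elavl3 and Elavl4 bind neuronal mRNAs, and Reelin is an extracellular protein that guides migrating neurons through lipoprotein receptors and the adaptor Dab1.

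Cbx1 was low on all 4 HP1βKO arrays (7.59 to 7.99, log2 signal) against 9.36 to 10.05 on the other arrays. Cbx5 went against the label in 2 ESC libraries, with 8.29 in the library labelled WT 2 and 9.995 in the library labelled HP1αKO 2, against 9.66 in the library labelled WT 1, 8.04 in the library labelled HP1αKO 1 and 9.72 and 9.88 in HP1βKO ESCs. In EBs it was 9.20 and 9.21 in HP1αKO and 10.26 to 10.40 in the other genotypes. Results on ESCs are therefore also given without these 2 libraries where this changed them. Replicates lay further apart in ESCs (SD of the difference between replicates over genes 0.391 to 0.574) than in EBs (0.127 to 0.196). All 8 pluripotency markers passed the floor in each ESC library, and 0 of 7 glial markers did on any array. Of 17 neuron markers, 11 passed the floor on at least 1 array, among them Gap43 and Ina of axons. Among these 11, the synaptic gene Syp passed it on HP1βKO ESC 1 alone (5.71). The other 6 passed it on none: Snap25 and Syt1, which serve synaptic vesicle release, Rbfox3, a nuclear marker of mature neurons, and Dcx, Map2 and Elavl4. In bulk RNA, fewer cells of a type and less RNA per cell cannot be told apart.

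In HP1βKO, Stmn2, Nefl, Tubb3 and Nes fell from ESCs to EBs, by between 1.89 and 4.56 on the log2 scale, and Reln rose (limma, Benjamini-Hochberg adjusted p under 0.05). Over all genes tested, 15.1% were called lower and 22% higher in this comparison. In WT only Stmn2 fell and Reln rose, and in HP1αKO Stmn2, Tubb3 and Nefl fell and Reln rose. Nefm in HP1βKO and Elavl3 in HP1αKO also had an adjusted p under 0.05, each in the comparison with the group through which it was tested. Reln was tested only through EBs, and its rise is given as a description.

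**Figure D1:**
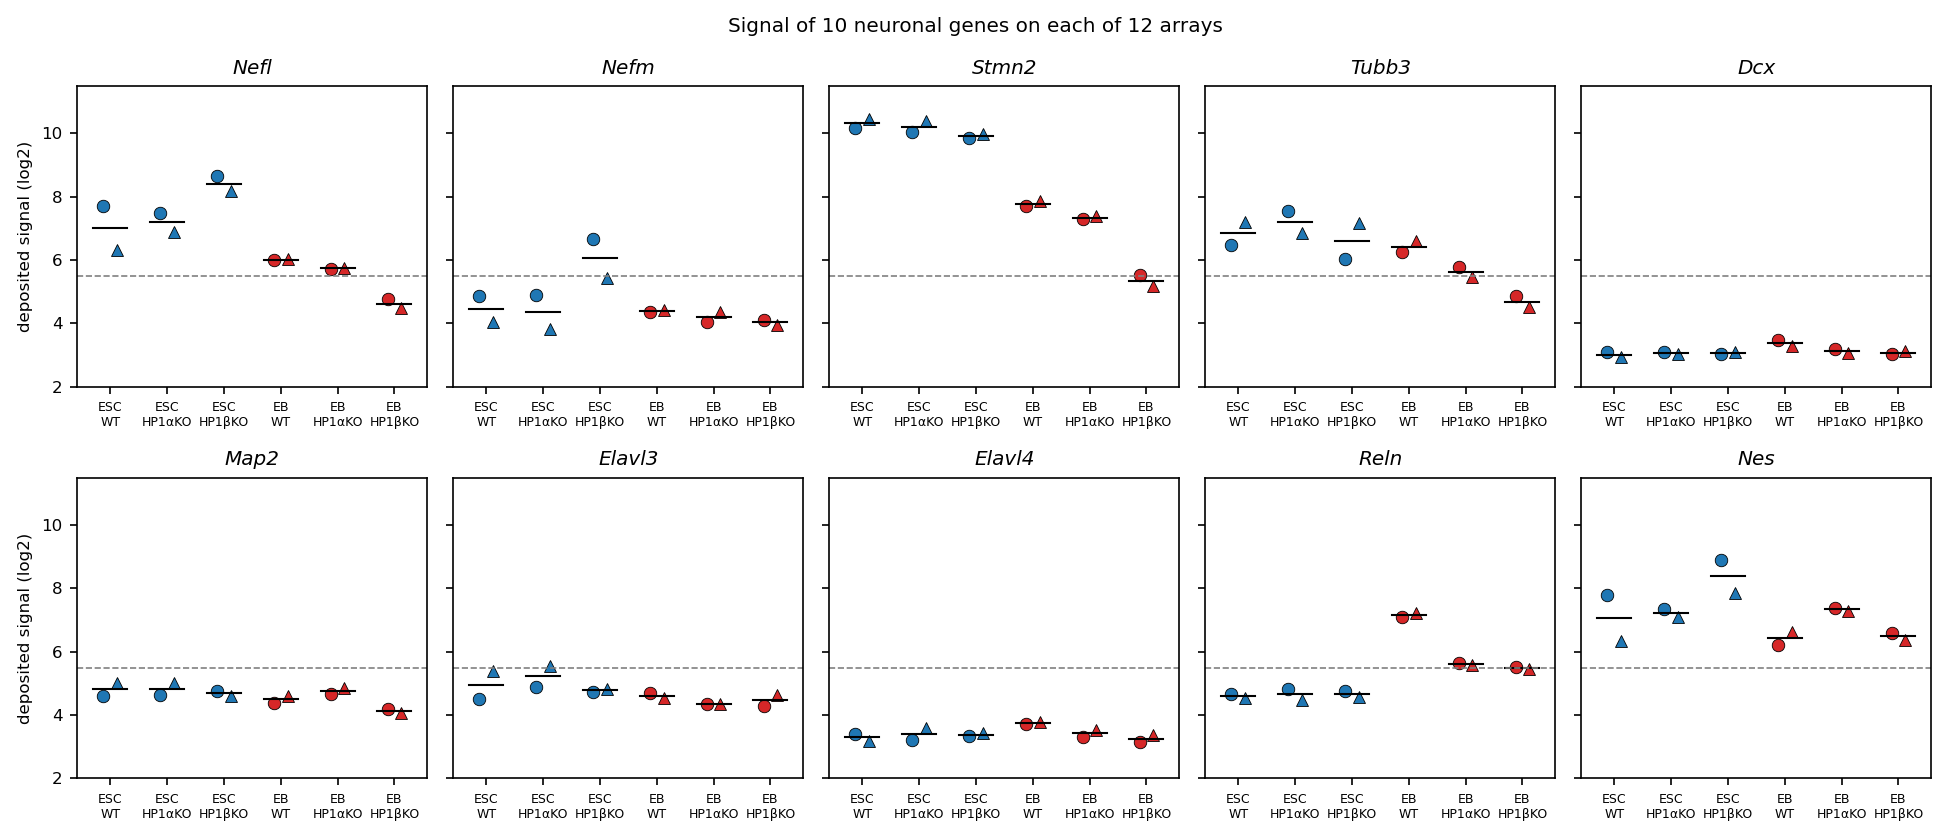
Deposited log2 signal (y axis) of each of the 10 genes on each of the 12 arrays, by group (x axis); circles are replicate 1, triangles replicate 2, short lines group means, blue ESCs and red EBs, and the dashed line is the floor of 5.49. Stmn2 steps down from about 10 in all ESCs to 5.52 and 5.18 in HP1βKO EBs, Reln stands highest in WT EBs, and Nefl, Nefm and Nes reach their highest values in HP1βKO ESCs.

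Nefl, the light neurofilament subunit, was measured in ESCs at 7.71 and 6.31 in WT, 7.50 and 6.88 in HP1αKO, and 8.64 and 8.17 in HP1βKO (log2 signal, replicates 1 and 2). In EBs it was measured at 6.003 and 6.04 in WT, 5.73 and 5.75 in HP1αKO, and 4.76 and 4.49 in HP1βKO. The HP1βKO ESCs were thus the highest libraries and the HP1βKO EBs the lowest, with no overlap with any other group, and only the HP1βKO EBs lay wholly below the floor. The fall from ESCs to EBs was -3.78 ± 0.39 (SE, n = 2 and 2, adjusted p = 0.000129) in HP1βKO, at least 7.54-fold when the EBs are set at the floor. It was -1.45 ± 0.39 (adjusted p = 0.0155) in HP1αKO and -0.99 ± 0.39 (adjusted p = 0.0756) in WT. The WT value rested on 1 library: without the library labelled ESC WT 2 it was -1.69 (adjusted p = 0.00294), and without ESC WT 1 it was -0.29 (adjusted p = 0.433). The HP1αKO call was lost without HP1αKO ESC 1 (-1.14, adjusted p = 0.0879), HP1αKO EB 1 (-1.44, adjusted p = 0.0722) or HP1αKO EB 2 (-1.47, adjusted p = 0.0685).

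Nefm, the medium subunit and the neighbour of Nefl on chromosome 14, was measured in ESCs at 4.87 and 4.05 in WT, 4.90 and 3.83 in HP1αKO, and 6.68 and 5.44 in HP1βKO. The EB libraries lay at 4.36 and 4.42 in WT, 4.04 and 4.37 in HP1αKO, and 4.12 and 3.95 in HP1βKO. Only HP1βKO ESC 1 passed the floor, and the other groups lay within 3.83 to 4.90. In HP1βKO the EBs lay below the ESCs (-2.02 ± 0.45, adjusted p = 0.00703), in a gene that the filter kept only for its level in these ESCs. As HP1βKO ESC 2 was itself below the floor, no fold is given. The differences in WT (-0.08 ± 0.45, adjusted p = 0.908) and in HP1αKO (-0.17 ± 0.45, adjusted p = 0.79) had 95% intervals of -1.08 to 0.93 and -1.17 to 0.84. A noncoding gene, A230070E04Rik, overlaps Nefm in the RefSeq annotation of GRCm38.p6, and its part in the signal of the feature was not tested.

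Nes was measured in ESCs at 7.78 and 6.34 in WT, 7.35 and 7.08 in HP1αKO, and 8.89 and 7.87 in HP1βKO. In EBs it was measured at 6.22 and 6.62 in WT, 7.38 and 7.29 in HP1αKO, and 6.59 and 6.38 in HP1βKO. All libraries were above the floor, and HP1βKO ESCs were again the highest group without overlap with the others. Nes fell from ESCs to EBs in HP1βKO (-1.89 ± 0.44, adjusted p = 0.00906), a call lost without HP1βKO EB 2 (-1.79, adjusted p = 0.0586) or HP1βKO ESC 1 (-1.38, adjusted p = 0.0615). In HP1αKO the difference was 0.12 ± 0.44 (adjusted p = 0.846) and in WT -0.64 ± 0.44 (adjusted p = 0.287), which became -1.36 (adjusted p = 0.0248) without the library labelled ESC WT 2.

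In ESCs, HP1βKO was above WT for Nefl by 1.40 ± 0.39, for Nefm by 1.60 ± 0.45 and for Nes by 1.32 ± 0.44. None of these passed the test over all genes (adjusted p = 0.671, 0.671 and 0.73), nor did any of the 10880 genes, a share of 0%. Over all genes, 118 were called without ESC WT 1, 153 without the 2 libraries whose Cbx5 opposed their label and 52 with the replicate number as a block in ESCs only. At an unadjusted p under 0.05, 3 of the 7 genes tested were higher and 1, Stmn2 (-0.40 ± 0.18), was lower, against 5.86% of all genes in either direction. Replicate 1 exceeded replicate 2 in each ESC group for these 3 genes, and the replicate numbers paired the ESC libraries. Within replicate 1 the HP1βKO library exceeded WT by 0.94 for Nefl, 1.80 for Nefm and 1.11 for Nes, and within replicate 2 by 1.85, 1.39 and 1.53. With the replicate number as a block within each state, 0 genes were called (adjusted p = 0.0932 for Nefl, 0.0539 for Nefm and 0.141 for Nes). With the block in ESCs only, an alternative chosen after seeing the data, Nefl (adjusted p = 0.034) and Nefm (adjusted p = 0.0167) were called and Nes was not (adjusted p = 0.063). Without the library labelled ESC WT 1, Nefl (2.09, adjusted p = 0.0161) and Nes (2.04, adjusted p = 0.0418) were called. Without the 2 libraries whose Cbx5 opposed their label, the differences were 0.70 (adjusted p = 0.144) for Nefl, 1.19 (adjusted p = 0.21) for Nefm and 0.60 (adjusted p = 0.454) for Nes. The text of the study names Nefl and Nefm among the genes misregulated in these ESCs, so that their direction is not independent evidence.

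HP1αKO ESCs gave no call against WT ESCs. None of the 7 genes was called, 0 had an unadjusted p under 0.05 beside 1.07% of all genes, and the share of all genes called was 0%. The difference was 0.18 ± 0.39 (95% interval -0.70 to 1.06) for Nefl, -0.10 ± 0.45 (-1.10 to 0.91) for Nefm and 0.15 ± 0.44 (-0.84 to 1.14) for Nes. Each of these groups holds 1 library whose Cbx5 opposed the label. Without both, 68 of all genes and none of the 7 were called, and the differences of Nefl (-0.20, adjusted p = 0.707) and Nes (-0.43, adjusted p = 0.643) turned negative, with Nefm at 0.03 (adjusted p = 0.983). HP1βKO ESCs exceeded HP1αKO ESCs by 1.22 ± 0.39 for Nefl (adjusted p = 0.876), 1.69 ± 0.45 for Nefm (adjusted p = 0.701) and 1.16 ± 0.44 for Nes (adjusted p = 0.928). None of the 7 passed the adjusted test, while 0.00919% of all genes passed it. Nefl, Nefm and Nes had an unadjusted p under 0.05, against 5.07% of all genes. With the block in ESCs only, Nefl and Nefm were called here too.

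The summed linear signal of 9 fibroblast markers, the feeder cells of the culture, moved with the replicate number in the same direction as these filament genes. It was 1741 and 321 in WT ESCs, 1019 and 354 in HP1αKO ESCs, and 737 and 374 in HP1βKO ESCs, for replicates 1 and 2. The SSEA1 sort of the study was meant to remove feeder cells and differentiating cells. The part of feeder RNA in these values was not tested. The neurogenic factors, neural progenitor genes and axonal genes chosen alongside gave no call in HP1βKO against WT ESCs, with medians of 0.18 over 8, 0.05 over 15 and -0.02 over 22 genes tested, beside -0.01 over all genes.

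**Figure D2:**
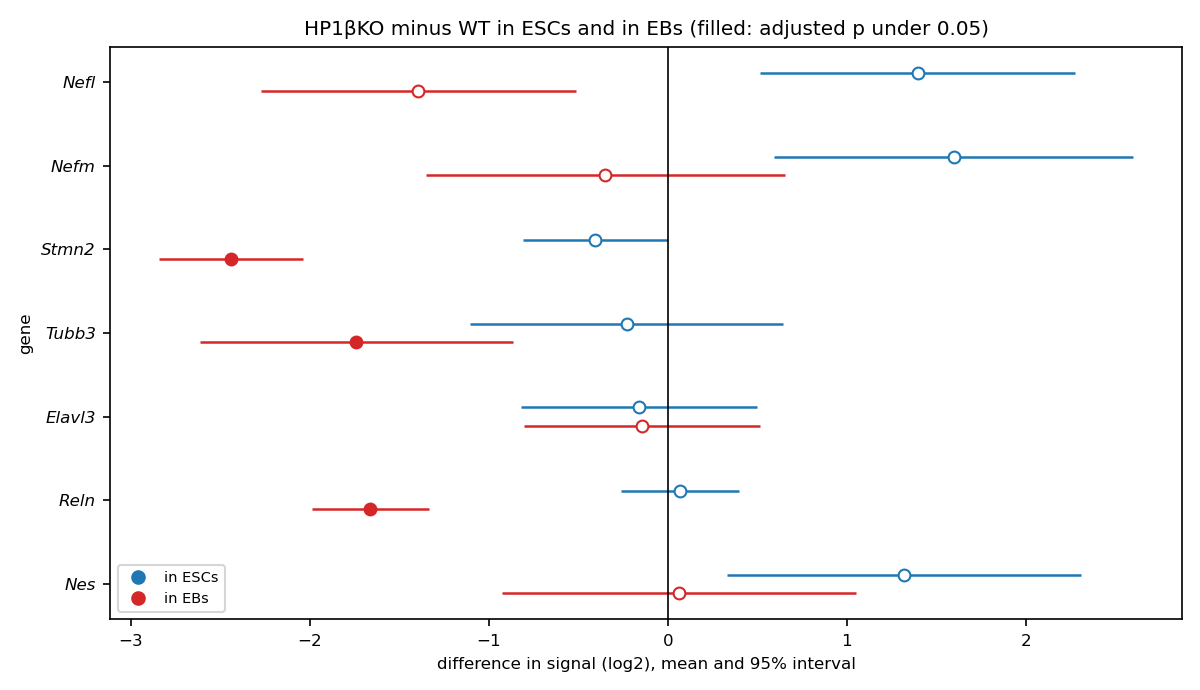
Difference in log2 signal between HP1βKO and WT (x axis) for the 7 genes tested (y axis), in ESCs (blue) and in EBs (red); points are the limma estimates, bars 95% intervals, and filled points have an adjusted p under 0.05. Nefl lies at 1.40 in ESCs and -1.39 in EBs, whereas Stmn2, Tubb3 and Reln are filled only in EBs.

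In EBs, HP1βKO was below WT for Stmn2, Tubb3 and Reln, 3 of the 7 genes tested, beside 1.62% of all genes called lower. Nefl did not pass (-1.39 ± 0.39, adjusted p = 0.115), and at the floor for HP1βKO the difference was at least 1.44-fold. Nefl was called on the 6 EB arrays alone (adjusted p = 0.000149), where replicates were closer. Nefm (-0.35 ± 0.45), Elavl3 (-0.14 ± 0.29) and Nes (0.06 ± 0.44) had 95% intervals of -1.35 to 0.65, -0.80 to 0.52 and -0.93 to 1.05.

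Stmn2 was measured in ESCs at 10.17 and 10.46 in WT, 10.04 and 10.40 in HP1αKO, and 9.84 and 9.98 in HP1βKO. The EB libraries lay at 7.70 and 7.87 in WT, 7.29 and 7.39 in HP1αKO, and 5.52 and 5.18 in HP1βKO. Every EB library was below every ESC library, and HP1βKO EBs stood apart below the other EBs, with 1 library on each side of the floor. Stmn2 fell from ESCs to EBs by 2.53 ± 0.18 in WT (adjusted p = 1.37e-05), by 2.88 ± 0.18 in HP1αKO (adjusted p = 4.3e-06) and by 4.56 ± 0.18 in HP1βKO (adjusted p = 5.36e-07). In WT and HP1αKO, 14.2% and 16.5% of all genes were called lower in EBs. HP1βKO EBs were below WT EBs by -2.44 ± 0.18 (adjusted p = 0.000105) and below HP1αKO EBs by -1.99 ± 0.18 (adjusted p = 0.000208). Stmn2 was the only 1 of the 7 called between the knockouts, beside 2.45% of all genes called lower. HP1αKO and WT EBs did not pass (-0.45 ± 0.18, adjusted p = 0.507). In descending order the group means were 10.32 ± 0.20 in WT ESCs, 10.22 ± 0.26 in HP1αKO ESCs, 9.91 ± 0.10 in HP1βKO ESCs, 7.79 ± 0.12 in WT EBs, 7.34 ± 0.07 in HP1αKO EBs and 5.35 ± 0.24 in HP1βKO EBs (SD, n = 2). Of the neighbours in this order within a state, only HP1αKO and HP1βKO EBs differed in the test, and HP1βKO ESCs and WT EBs, whose arrays did not overlap, were not compared.

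Tubb3 was measured in ESCs at 6.49 and 7.20 in WT, 7.54 and 6.87 in HP1αKO, and 6.05 and 7.18 in HP1βKO. In EBs it was measured at 6.25 and 6.61 in WT, 5.80 and 5.47 in HP1αKO, and 4.87 and 4.51 in HP1βKO. The ESC groups overlapped, and in EBs the groups were ordered WT, HP1αKO, HP1βKO without overlap. Tubb3 was lower in HP1βKO than in WT EBs (-1.74 ± 0.39, adjusted p = 0.0462), at least 1.92-fold with HP1βKO at the floor. This call was lost without any 1 of the 4 arrays: -1.92 (adjusted p = 0.17) without WT EB 1, -1.56 (adjusted p = 0.33) without WT EB 2, -1.92 (adjusted p = 0.181) without HP1βKO EB 1, and -1.56 (adjusted p = 0.312) without HP1βKO EB 2. Neither HP1αKO against WT EBs (-0.80 ± 0.39, adjusted p = 0.663) nor HP1βKO against HP1αKO EBs (-0.94 ± 0.39, adjusted p = 0.313) passed. From ESCs to EBs Tubb3 fell in HP1βKO (-1.92 ± 0.39, adjusted p = 0.0047) and in HP1αKO (-1.57 ± 0.39, adjusted p = 0.0107), while the WT difference was -0.41 ± 0.39 (adjusted p = 0.438). The HP1αKO call was lost without HP1αKO ESC 1 (-1.23, adjusted p = 0.0658) or HP1αKO EB 2 (-1.41, adjusted p = 0.0722).

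The promoter windows of Tubb3 and Reln are printed because these genes were called lower in HP1βKO EBs and have an entry in the RefSeq promoter table of GRCm38.p6, which lists 7 of the 10 genes and not Nefl, Nefm or Stmn2. Each runs from 250 bases before the start of the gene to 50 after it, 5′ to 3′ on the strand of the gene, and capitals mark GGGCGG, a GC box, searched on both strands as GGGCGG or CCGCCC. The Tubb3 window is chr8:123411303-123411602 on the plus strand, and the Reln window is chr5:22344656-22344955 on the minus strand.
Tubb3: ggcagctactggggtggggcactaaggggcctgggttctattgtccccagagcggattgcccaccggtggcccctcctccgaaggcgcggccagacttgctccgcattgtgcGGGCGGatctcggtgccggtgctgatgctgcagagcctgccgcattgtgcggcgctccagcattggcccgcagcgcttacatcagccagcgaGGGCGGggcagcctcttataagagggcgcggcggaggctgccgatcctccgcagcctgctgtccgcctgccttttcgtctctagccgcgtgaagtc
Reln: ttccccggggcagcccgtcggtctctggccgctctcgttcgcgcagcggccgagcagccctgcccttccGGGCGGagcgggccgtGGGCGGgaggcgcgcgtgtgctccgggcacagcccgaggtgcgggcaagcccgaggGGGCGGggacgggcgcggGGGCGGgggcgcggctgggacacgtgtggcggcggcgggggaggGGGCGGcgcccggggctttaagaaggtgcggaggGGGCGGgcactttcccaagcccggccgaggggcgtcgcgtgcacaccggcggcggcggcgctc
The Reln window had 47 CpG dinucleotides and 80.7% G and C, and the Tubb3 window 26 and 67.3%, where the median over all 32851 windows of the table was 7 CpG dinucleotides. Reln held 6 GC boxes and Tubb3 held 2, and 35.7% of all windows held at least 1. CANNTG, the E-box searched on both strands, was found in the Reln window 1 time and in the Tubb3 window 0 times, and 72.3% of all windows held it. These matches describe letters only, and binding at these promoters was not analysed here.

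Reln, the only gene of the set that rose from ESCs to EBs, was measured in ESCs at 4.65 and 4.53 in WT, 4.83 and 4.49 in HP1αKO, and 4.74 and 4.57 in HP1βKO. The EB libraries lay at 7.08 and 7.21 in WT, 5.65 and 5.57 in HP1αKO, and 5.51 and 5.45 in HP1βKO. All ESCs lay below the floor, WT EBs well above it, and both knockouts just at it. Reln was thus tested only through EBs, and its rise from ESCs is given as a description. Reln rose by 2.55 ± 0.15 in WT (adjusted p = 3.46e-06), at least 3.14-fold with ESCs at the floor, by 0.95 ± 0.15 in HP1αKO (adjusted p = 0.000984), at least 1.09-fold, and by 0.82 ± 0.15 in HP1βKO (adjusted p = 0.00242), where 1 of the 2 EB libraries was below the floor and no fold is given. In WT 22% and in HP1αKO 25% of all genes were called higher in EBs. HP1βKO EBs were below WT EBs by -1.66 ± 0.15 (adjusted p = 0.000279) and HP1αKO EBs by -1.53 ± 0.15 (adjusted p = 0.00116), a 2.89-fold difference. Reln was the only 1 of the 7 called in HP1αKO against WT EBs, where 0.478% of all genes were called lower, and both comparisons share the WT arrays. The knockouts differed from each other by -0.13 ± 0.15 (adjusted p = 0.834), with a 95% interval of -0.46 to 0.20. In ESCs the knockouts differed from WT by 0.07 ± 0.15 each. As WT carried another line label than both knockouts, line and genotype cannot be told apart for Reln.

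Of the 7 Reelin receptors and adaptors, all tested, 0 differed between HP1βKO and WT EBs. Vldlr, a Reelin receptor, rose from ESCs to EBs by 1.02 ± 0.23 in WT (adjusted p = 0.00962), 0.93 ± 0.23 in HP1αKO (adjusted p = 0.0118) and 1.38 ± 0.23 in HP1βKO (adjusted p = 0.00198). Dab1, the intracellular adaptor, was measured in EBs at 5.16 and 5.14 in WT, 6.76 and 6.53 in HP1αKO, and 4.27 and 4.85 in HP1βKO. Dab1 was thus higher in HP1αKO than in WT EBs (1.5 ± 0.19, adjusted p = 0.0066) and lower in HP1βKO than in HP1αKO EBs (-2.09 ± 0.19, adjusted p = 0.000258), whereas the Reln values of both knockouts lay below WT. For Dab1, WT and HP1βKO EBs lay below the floor, so that the size of these differences is not read.

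Elavl3 was measured in ESCs at 4.50 and 5.38 in WT, 4.88 and 5.56 in HP1αKO, and 4.74 and 4.82 in HP1βKO. In EBs it was measured at 4.70 and 4.53 in WT, 4.35 and 4.36 in HP1αKO, and 4.30 and 4.64 in HP1βKO. Only the library labelled HP1αKO ESC 2 passed the floor. The difference between EBs and ESCs was -0.86 ± 0.29 in HP1αKO (adjusted p = 0.0401), -0.32 ± 0.29 in WT (adjusted p = 0.42) and -0.31 ± 0.29 in HP1βKO (adjusted p = 0.44). As Elavl3 was tested only through that library, no fall is read from the HP1αKO value. It missed the threshold without the library labelled HP1αKO ESC 2 (-0.52, adjusted p = 0.227), HP1αKO EB 1 (-0.86, adjusted p = 0.137) or HP1αKO EB 2 (-0.87, adjusted p = 0.136), and in WT Elavl3 passed the threshold without ESC WT 1 (-0.76, adjusted p = 0.0479). Without both libraries whose Cbx5 opposed the label the HP1αKO difference was -0.52 (adjusted p = 0.0307). The genes below the floor on all arrays ranged from 2.93 to 3.48 for Dcx, from 4.06 to 5.01 for Map2 and from 3.15 to 3.77 for Elavl4, and none of them was tested.

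Whether loss of HP1β acted differently in the 2 states was tested as the HP1βKO minus WT difference in EBs less that in ESCs. This was below 0 for Stmn2 (-2.03 ± 0.25, adjusted p = 0.00527), Reln (-1.73 ± 0.21, adjusted p = 0.00438) and Nefl (-2.79 ± 0.55, adjusted p = 0.0498), 3 of the 7 genes beside 0.68% of all genes called lower. In ESCs the HP1βKO minus WT difference was -0.40 for Stmn2 and 0.07 for Reln, whereas the Nefl estimates had opposite signs in ESCs (1.40) and EBs (-1.39), neither of which passed alone. The Nefl call was lost without any 1 EB array (adjusted p = 0.188 without WT 1, 0.186 without WT 2, 0.155 without HP1βKO 1 and 0.199 without HP1βKO 2), without HP1βKO ESC 1 (0.161) or without HP1βKO ESC 2 (0.0664). It was also lost on the arrays of the groups compared only (0.103), with a floor of 100 (0.057), with no floor (0.0518) and with median centred arrays (0.0641). It was kept without the 2 libraries whose Cbx5 opposed the label (-2.09, adjusted p = 0.00559). Nefm (-1.95 ± 0.63, adjusted p = 0.227), Tubb3 (-1.51 ± 0.55, adjusted p = 0.303) and Nes (-1.26 ± 0.62, adjusted p = 0.516) did not pass. With the replicate block, within each state or in ESCs only, Nefm passed as well. For HP1α the same test called Reln (-1.60 ± 0.21, adjusted p = 0.0158), beside 0.0551% of all genes called lower, and this was lost without WT EB 1 (adjusted p = 0.0908), WT EB 2 (0.112), HP1αKO EB 1 (0.112) or HP1αKO EB 2 (0.134).

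Of 22 axon and cytoskeleton genes tested, 8 (36.4%) were lower and 4 (18.2%) higher in HP1βKO EBs than in HP1βKO ESCs, beside 15.1% and 22% of all genes, with a median of -0.18 against 0.04. The lowest were Gng3 (-3.46 ± 0.30), a neuronal G protein subunit, Ina (-2.75 ± 0.39), the neuronal filament protein α-internexin, and Uchl1 (-2.25 ± 0.31), a neuronal deubiquitinase, while the adhesion molecule Ncam1 rose (2.38 ± 0.28). In WT 4 of the 22 (18.2%) were lower and 6 (27.3%) higher, near the 14.2% and 22% of all genes, again led by Gng3 (-3.35 ± 0.30) and Ina (-2.56 ± 0.39) with Nefh, the heavy neurofilament subunit, at -1.74 ± 0.25, and in HP1αKO 7 (31.8%) were lower and 5 (22.7%) higher, beside 16.5% and 25%. Gng3 (4.08 to 4.42 in EBs) and Nefh (5.05 to 5.46 in EBs) passed the floor only in ESCs. Each was therefore tested through the state where it was high. Their differences are descriptions, and the counts of lower genes, which hold such genes, are no support for a direction. Ina was measured at 7.86 to 9.29 in ESCs and at 5.44 to 6.08 in EBs, without overlap, so that α-internexin fell in all genotypes. Between HP1βKO and WT EBs, 2 of the 22 (9.09%) were called lower, beside 1.62% of all genes, with a median of -0.23. They were Dpysl3 (-0.55 ± 0.12, adjusted p = 0.0387) and Stmn3 (-0.75 ± 0.17, adjusted p = 0.0488), a relative of Stmn2. Stmn3 lay below the floor on all of these EB arrays, at 5.29 and 5.25 in WT and 4.46 and 4.58 in HP1βKO. No fall is therefore read from its value. Of 8 other intermediate filament genes tested, 4 (50%) rose from ESCs to EBs in HP1βKO, beside 22% of all genes. They were Vim (1.62 ± 0.34), Krt19 (1.44 ± 0.27), Krt8 and Krt18. Synm, named after its value was seen, lay lower in EBs (-0.72 ± 0.16). Synm passed the floor only on HP1βKO ESC 1 (5.53), so that no fall is read from it.

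Of 15 neural progenitor genes tested, 4 were called lower in HP1βKO than in WT EBs, beside 1.62% of all genes. They were Pax3 (-2.39 ± 0.15), Zic1 (-2.16 ± 0.16), Fabp7 (-2.07 ± 0.34) and Pax6 (-1.05 ± 0.22). Pax3, Zic1 and Pax6 are transcription factors of the neural tube and Fabp7 a fatty acid binding protein of radial glia. Pax3 and Zic1 passed the floor only in WT EBs and Fabp7 only on WT EB 2, so that each was tested through the group where it was high. Pax6 passed it only in HP1αKO EBs and lay below it in both groups compared. These differences are given as descriptions, and the count is no support for a direction. HP1αKO EBs also lay below WT EBs for Pax3 (4.75 and 4.65, against 6.10 and 6.45) and Zic1 (4.91 and 4.75, against 5.63 and 5.81). Fabp7 was at 5.31 and 4.96 in HP1αKO EBs, against 5.33 and 5.97 in WT EBs. Pax6 was higher in HP1αKO EBs (5.65 and 6.07, against 4.95 and 5.17). The median of the 15 in HP1βKO against WT EBs was -0.30. Of 8 neurogenic factors and of 5 synaptic genes tested, 0 were called, with 0 of the 8 neurogenic factors above 0 and a median of -0.47. From ESCs to EBs, Isl1, a factor of motor neurons and also of cardiac progenitors, rose by 3.48 ± 0.19 in HP1βKO, 3.84 ± 0.19 in WT and 3.76 ± 0.19 in HP1αKO. Isl1 lay below the floor on all ESC arrays (4.29 to 4.90) and was tested through EBs, so that its values are descriptions. Rest, the repressor of neuronal genes in other cells, fell by 1.21 ± 0.28 in HP1βKO, by 1.36 ± 0.28 in WT and by 1.59 ± 0.28 in HP1αKO, and 0 of the 10 genes of REST and its cofactors differed between HP1βKO and WT EBs.

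**Figure D3:**
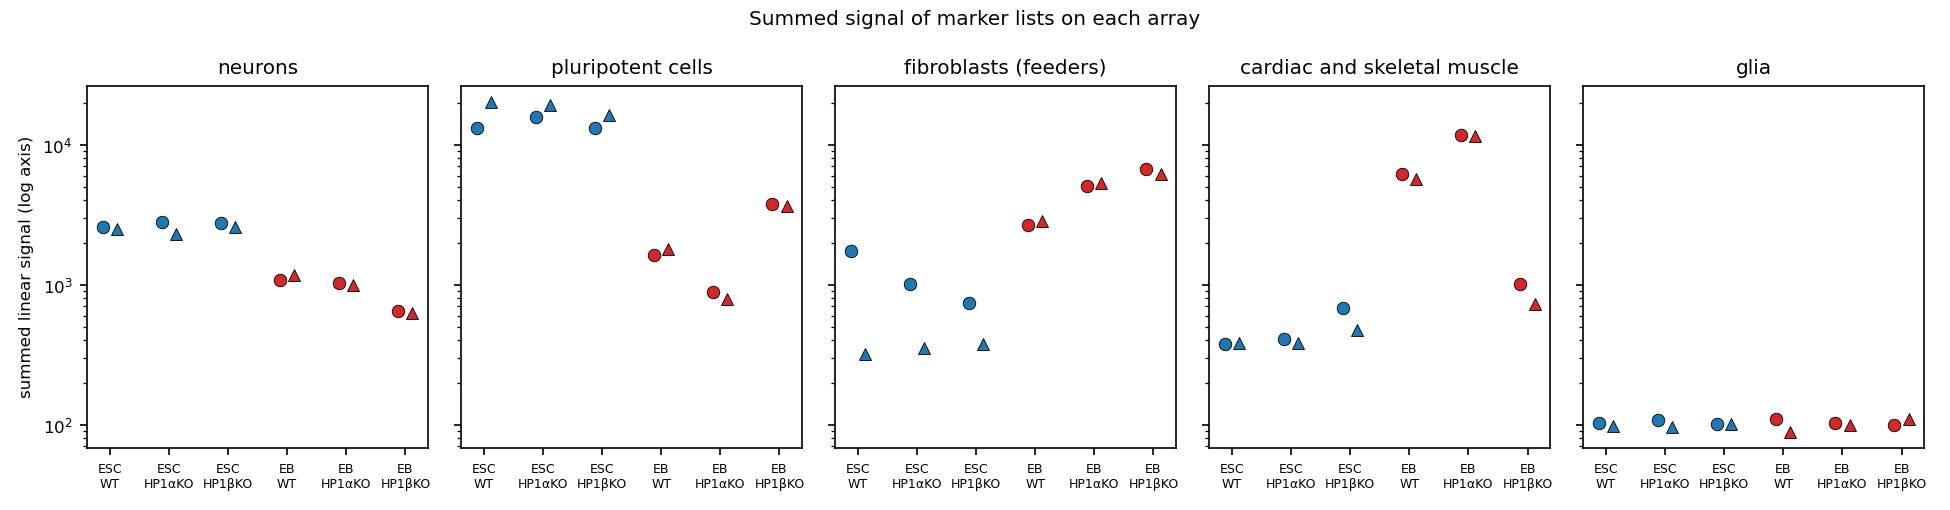
Summed linear signal (y axis, log scale) of marker lists for 5 cell types on each of the 12 arrays, by group (x axis); circles are replicate 1, triangles replicate 2, blue ESCs and red EBs. The neuron list sums to 628 to 653 in HP1βKO EBs, below all other groups, while glial markers stay between 88.9 and 110 throughout.

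The summed signal of 17 neuron markers was 2316 to 2797 in ESCs, 1074 to 1182 in WT EBs, 998 to 1024 in HP1αKO EBs and 628 to 653 in HP1βKO EBs. The list includes the 10 genes, so that its sum is no reading separate from them. Markers of other cell types moved with the groups as well. HP1βKO EBs had more pluripotency signal (3639 to 3757 over 8 markers, with 7 or 8 above the floor) than WT EBs (1625 to 1802) and HP1αKO EBs (796 to 887). The fibroblast signal was 6156 to 6752 in HP1βKO, 5045 to 5341 in HP1αKO and 2691 to 2870 in WT EBs. HP1βKO EBs had less muscle signal (723 to 1006, against 5709 to 6194 in WT and 11577 to 11661 in HP1αKO). The part of these cell types in the lower Stmn2, Tubb3 and Reln of HP1βKO EBs was not tested.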

How the data were processed

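Total RNA of 12 samples was hybridised to Affymetrix whole-transcript arrays. The authors deposited log2 signals made by RMA in Affymetrix Expression Console, that is background correction, quantile normalization and summary per feature; versions and genome build: not given in the sources used here. In the methods an exon array is named, whereas the feature identifiers match the Mouse Gene 1.0 ST annotation. Quantile normalization gives all arrays the same distribution, so values are relative within an array, and the number of arrays limits the precision. Of 35556 features, 21789 carried 1 symbol, giving 19938 genes (19856 matched RefSeq by gene number). Genes at a signal over 45 on at least 1 array (10880) were fitted with limma 3.58.1 (R 4.3.3): 6 group means, 12 arrays, 6 residual degrees of freedom, eBayes, two-sided, Benjamini-Hochberg over all genes for each of 11 comparisons, threshold 0.05. Where both arrays of a group lay at or under the floor, a bound on the fold against the floor is given if both arrays of the other group passed it. Detection calls were not used here. Overlap of arrays between groups was not counted over all genes, so that a lack of overlap describes the values of a gene only.

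The members and lists were chosen with earlier results of these data known. The 10 genes were all named; from the other lists, at most 4 genes called per comparison, largest difference first. Replicate numbers paired the ESC libraries (correlations of replicate differences 0.300 to 0.497 between genotypes) and not the EB libraries (-0.454 to 0.112). Alternatives were the arrays fitted, a replicate block, array weights, the floor, median centring, the mean of features, a 1.5-fold rule and leaving out each array. A block in ESCs only, and leaving out the 2 libraries whose Cbx5 opposed the label, were added after seeing the data. The fit was tested on simulated data.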

Additional observations from a re-analysis of the deposited data

Results flagged for a closer look

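The effect of HP1β loss differed between EBs and ESCs for 3 of the genes, by the difference of the HP1βKO minus WT differences: Nefl (-2.79, adjusted p = 0.0498), which passed in 2 of 8 fits with 1 array left out and failed under 4 other alternatives (adjusted p = 0.0518 to 0.103), Reln (-1.73, adjusted p = 0.00438) and Stmn2 (-2.03, adjusted p = 0.00527). The effect of HP1α loss differed between the states for Reln (-1.60, adjusted p = 0.0158), which passed in 4 of 8 such fits and failed on the arrays of the groups compared only (adjusted p = 0.0941). For Reln the HP1β and HP1α values share the WT arrays.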

How the results depend on the processing

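No call of a gene changed sign under any alternative run: of the values recomputed for called genes, 264 stayed on their side of the threshold and 32 did not. The number of the 7 genes called moved by more than 1.5 times as follows. With the replicate block in ESCs only it became 2 in HP1βKO against WT ESCs, 2 in HP1βKO against HP1αKO ESCs and 2 in HP1βKO against HP1αKO EBs; with the replicate block within each state it became 1 in HP1βKO against HP1αKO ESCs and 2 in the same EBs, and the block changed no other count by this much. On the 6 EB arrays alone it became 3 in HP1αKO against WT EBs and 4 in HP1βKO against HP1αKO EBs. With the arrays of the groups compared only it became 0 for the HP1α effect in EBs minus ESCs. With array weights it became 4 in both of these EB comparisons. With 1.5-fold in every pair of arrays it became 2 in HP1αKO against WT EBs, 4 in HP1βKO against HP1αKO EBs and 1 in HP1βKO against HP1αKO ESCs. Without the 2 ESC libraries whose Cbx5 opposed the label it became 4 in WT EBs against WT ESCs. Leaving out 1 array gave 0 to 2 in HP1βKO against WT ESCs, 2 to 4 in WT EBs against WT ESCs, 2 to 4 in HP1αKO EBs against HP1αKO ESCs and 0 to 1 for the HP1α effect in EBs minus ESCs. The cause was not tested. Centring the arrays moved the median of all genes in HP1βKO EBs against HP1βKO ESCs from 0.04 to -0.09. Over all genes, HP1βKO against WT EBs called 353 genes, 2043 on the 6 EB arrays alone, 1435 with array weights, 506 with the block within each state, 701 with the block in ESCs only, 555 by the 1.5-fold rule and 96 to 120 with 1 array left out. Values near the floor limit what a fold can show.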

Other observations

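The 5 genes tested whose 12 values were most like the mean profile of the 7 genes (each centred on its mean) were Cdk6 (Pearson r = 0.963), Kcnk1 (0.962), Gpd2 (0.962), Epcam (0.962) and Ybx1 (0.961). These correlations describe the 12 arrays, which fall into ESCs and EBs, and carry no p. The profile was highest in HP1βKO ESCs (0.93 and 0.71 above the mean) and lowest in HP1βKO EBs (-1.05 and -1.20). Cdk6, a cell cycle kinase, was measured at 7.94 to 8.91 in ESCs and at 6.61 and 6.74 in HP1βKO EBs. Epcam, an epithelial adhesion protein, was measured at 9.02 to 9.61 in ESCs and at 7.61 and 7.71 in HP1βKO EBs.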
